A study of Mus musculus with 6 samples.

Results

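The 10 genes described here encode the major histocompatibility complex (MHC) molecules that show peptides to T cells, and the factors that load and switch them on. They were chosen by name, not by their values, as the probe sets whose Entrez Gene number maps to the listed symbols. All 10 were found among the 23185 named genes on the arrays. The class II genes are H2-Aa, H2-Ab1, H2-Eb1, Cd74 and Ciita, and the class I genes are H2-K1, H2-D1, B2m, Tap1 and Tap2. Their expression was measured in hematopoietic stem cells (HSCs) double sorted as CD150+ CD48- LSK cells (lineage-negative, Sca-1+, c-Kit+) from the bone marrow of young adult mice. The genotypes, wild type (WT) and Merit40-/-, had 3 arrays each, and the comparison asks what the loss of Merit40 does to gene expression in untreated, freshly isolated HSCs. Merit40, encoded by Babam1, is a subunit shared by the BRISC and BRCA1-A complexes, which cut lysine-63-linked ubiquitin chains. The labels do not give the strain, how the Merit40 allele was made, or how many mice each array stands for, so p-values measure only the spread between these arrays.

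MHC class I molecules consist of a heavy chain, here H2-K1 or H2-D1, bound to beta-2-microglobulin, and nearly all nucleated cells carry them. Their peptides are cut by the proteasome in the cytosol and pumped into the endoplasmic reticulum by the transporter that Tap1 and Tap2 form. MHC class II molecules pair an alpha with a beta chain and are held ready by the invariant chain, Cd74, until they meet peptides from endocytosed proteins. Class II is best known from B cells, dendritic cells and macrophages, and stem and progenitor cells of the marrow can carry it too. Ciita is the coactivator that turns class II genes on, and interferon-gamma is its best known inducer. By the reference table of genes, 7 of the 10 lie on chromosome 17, in the order H2-K1, Tap1, Tap2, H2-Ab1, H2-Aa, H2-Eb1 and H2-D1, while Ciita, Cd74 and B2m lie on chromosomes 16, 18 and 2.

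The deleted gene and the sort were checked first. On the log2 scale of the deposited values, Babam1 had a WT mean of 8.0 ± 0.08 (SD, n = 3) and a Merit40-/- mean of 4.06 ± 0.21 (SD, n = 3), and fell by 3.94 (SE 0.14, adjusted p = 5.04e-05 in limma). All 12 measured genes of the stem cell and sort list had a mean at or above the median level of all genes, 4.93, which serves here as a mark of low signal. This includes Cd48, which the sort selects against, at a WT mean of 5.42 and a Merit40-/- mean of 5.39. The mean level of the list ran from 8.13 to 8.41 in WT and from 8.35 to 8.47 in Merit40-/-. Merit40-/- replicate 1 was the highest array for 12 of 12 skeletal muscle markers, with a mean of 8.40 against 4.64 to 4.92 on the other 5 arrays. Merit40-/- replicate 3 was the highest array for 6 of 10 osteoclast markers, most of all Ctsk at 7.94 and Acp5 at 7.91 against at most 3.89 and 5.19, and the list had a mean of 5.54 there against 4.43 to 4.58 elsewhere.

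None of the 10 presentation genes passed the test between genotypes. In limma, fitted to all 23185 genes, 0 of 10 had an adjusted p under 0.05, where 0.00431% of all genes did, namely Babam1 alone. At an unadjusted p under 0.05 there was 1 of 10, H2-Eb1, where 4.22% of all genes passed. The 3 arrays of one genotype lay wholly above or below those of the other for 1 of 10, again H2-Eb1, where this held for 9.05% of all genes. In each of the 10 the difference between genotype means was smaller than the larger of the ranges within WT and within Merit40-/-. The share of all genes for which this holds was not counted, so it cannot be read as particular to the members. The class II genes had 4 of 5 members lower in Merit40-/- and a median difference of -0.30, and the class I genes had 3 of 5 lower and a median of -0.029. Over all genes 48.5% were lower and the median difference was 0.0052.

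**Figure D1:**
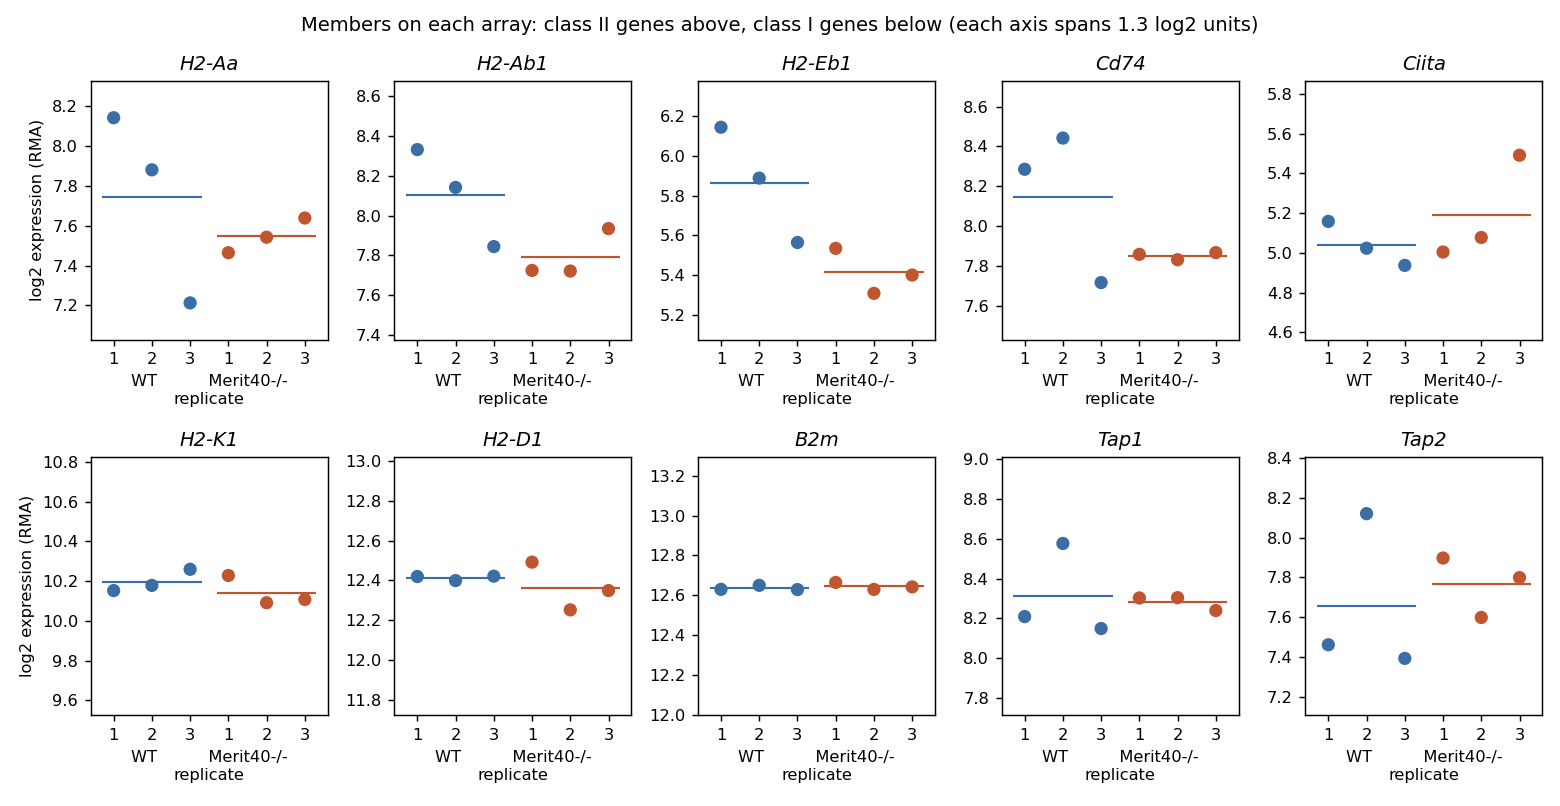
The log2 expression of each of the 10 genes (vertical axis, RMA values) on each array (horizontal axis, replicates 1 to 3 of WT in blue and of Merit40-/- in orange), with a line at each genotype's mean. All panels span the same number of log2 units, so heights can be compared. The 4 class II chain and invariant chain genes are high on WT replicates 1 and 2 only, B2m lies within 12.63 and 12.66 on every array, and Ciita is highest on Merit40-/- replicate 3.

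The class II chain genes were all lower in the Merit40-/- mean, and in all of them WT replicate 3 lay well below the other WT arrays. H2-Aa, the alpha chain of the I-A molecule, read 8.14, 7.88 and 7.21 on WT replicates 1, 2 and 3 and 7.46, 7.54 and 7.64 on Merit40-/- replicates 1, 2 and 3. WT replicate 3 was thus the lowest of the 6 arrays, and all 3 Merit40-/- arrays lay inside the WT range. The WT mean was 7.75 ± 0.48 (SD, n = 3) and the Merit40-/- mean 7.55 ± 0.09 (SD, n = 3), a difference of -0.20 (95% interval -0.71 to 0.32). H2-Ab1, the beta chain that pairs with it, read 8.33, 8.14 and 7.84 in WT and 7.72, 7.72 and 7.94 in Merit40-/-. Its genotypes overlapped only through WT replicate 3, which lay between the Merit40-/- arrays. Its difference was -0.31 (95% interval -0.66 to 0.04).

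H2-Eb1, the beta chain of the I-E molecule, was the member with the lowest difference. It read 6.14, 5.89 and 5.56 in WT and 5.53, 5.31 and 5.40 in Merit40-/-, so that the genotypes did not overlap, by a gap of 0.03 between WT replicate 3 and Merit40-/- replicate 1. The WT mean was 5.87 ± 0.29 (SD, n = 3) and the Merit40-/- mean 5.41 ± 0.11 (SD, n = 3). The difference was -0.45 (SE 0.16, 95% interval -0.83 to -0.07), with an unadjusted p of 0.0251 and an adjusted p of 0.999 in limma. Cd74, the invariant chain that guides class II chains to the endosome, read 8.28, 8.44 and 7.72 in WT and 7.86, 7.83 and 7.87 in Merit40-/-. Its Merit40-/- arrays lay within 0.04 of each other, above WT replicate 3 and below the other WT arrays, and its difference was -0.30 (95% interval -0.73 to 0.13).

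Ciita did not follow the chain genes. It read 5.16, 5.02 and 4.94 in WT and 5.0, 5.08 and 5.49 in Merit40-/-, all close to that median level, in the range where array values understate differences. Its highest array was Merit40-/- replicate 3, the array with high Ctsk and Acp5. There the 4 chain genes deviated from their own means over the 6 arrays by -0.0082 (H2-Aa), -0.015 (H2-Ab1), -0.13 (Cd74) and -0.24 (H2-Eb1). That array was also the highest of the Merit40-/- arrays for H2-Aa, H2-Ab1 and Cd74, but not for H2-Eb1. The difference was 0.15 (SE 0.16) with all arrays and 0.0011 without that array, and the part of the osteoclast markers in it was not tested.

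WT replicates 1 and 2 were the 2 highest of the 6 arrays in 4 of 4 class II chain genes (H2-Aa, H2-Ab1, H2-Eb1 and Cd74) and in none of the other 6 members. Over all genes these arrays formed the highest pair in 6.16%. This pair was singled out after the values were seen and is no group of the study. The mean level of the 4 genes was 7.73, 7.59 and 7.08 on WT replicates 1, 2 and 3 and 7.15, 7.10 and 7.21 on the Merit40-/- arrays. WT replicate 3 therefore fell just below the Merit40-/- arrays, and the WT arrays spanned more than the genotype means were apart. The mean difference over the 5 class II members was -0.22 with all arrays, -0.11 without WT replicate 1 and -0.38 without WT replicate 3. H2-Aa turned to 0.0019 without WT replicate 1.

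Cell types that carry much class II were looked for on the same arrays. Of 13 macrophage and monocyte markers, 6 lay at or above the median level of all genes, and their mean level was 5.40, 5.26 and 4.96 in WT replicates 1, 2 and 3 and 5.03, 5.20 and 5.28 in the Merit40-/- replicates. WT replicate 3 was lowest and WT replicate 1 highest, as for H2-Aa, but Merit40-/- replicate 3 exceeded WT replicate 2. Of 12 B cell markers, 2 lay at or above that median, and their mean level ran from 4.15 to 4.49 in WT and from 4.29 to 4.53 in Merit40-/-, again lowest on WT replicate 3. Of 12 dendritic cell markers, 4 did so, with means of 5.06 to 5.12 in WT and 5.01 to 5.13 in Merit40-/-. The defining markers Cd79a and Ms4a1 of B cells, Itgax of dendritic cells, and Adgre1 and Csf1r of macrophages were below the median of all genes on every array, with highest readings of 4.59, 4.34, 3.97, 4.45 and 4.78. Other listed genes read higher, with Cd79b of the B cell receptor at 8.23 to 8.92, Cd68 at 6.51 to 7.62 and C1qb at 5.79 to 6.77. Ly6c2 of the macrophage and monocyte list read 8.53 to 9.38. The 4 dendritic cell markers above the median were Cst3 (10.37 to 10.72), Flt3 (6.30 to 7.27), Ly6d (5.36 to 6.17) and Clec9a (5.08 to 5.55). The adhesion receptor gene Vcam1 was the 1 of the 13 macrophage markers with WT replicates 1 and 2 as its highest arrays, at 5.26 and 5.31 against at most 4.88, with a difference of -0.39 (SE 0.16). The same pair was highest in 2 of the 12 B cell markers (Cr2 and Igll1) and 1 of the 12 dendritic cell markers (Clec9a). The mean level of 14 T and NK cell markers ran from 4.49 to 4.58 in WT and from 4.42 to 4.58 in Merit40-/-, and that of 10 endothelial markers from 6.02 to 6.18 and from 6.17 to 6.27. The part of these cells in the class II values was not tested. In such bulk samples fewer cells of a type and less RNA per cell cannot be told apart.

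**Figure D2:**
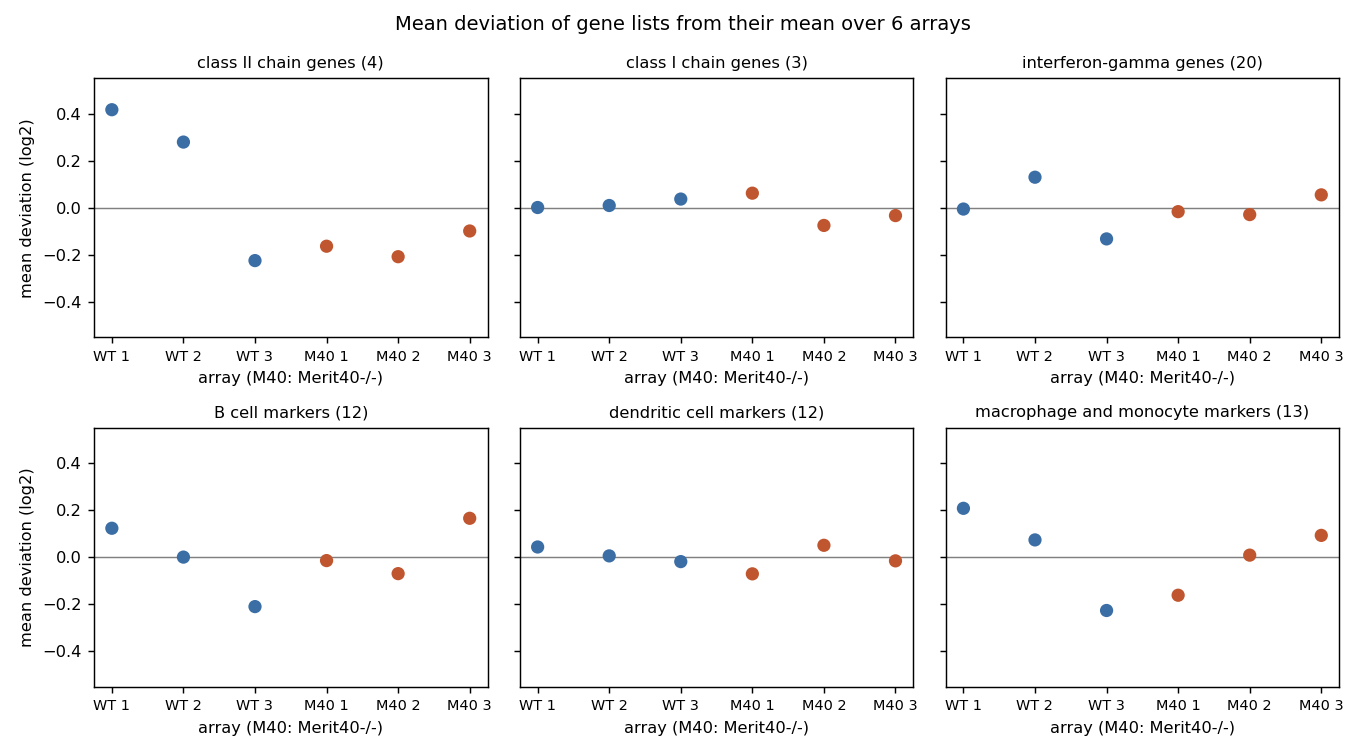
Mean deviation of 6 gene lists on each array from their own mean over the 6 arrays (vertical axis, log2 units; horizontal axis, WT replicates 1 to 3 in blue and Merit40-/- replicates 1 to 3, written M40, in orange; number of genes in brackets). The class II chain genes stand at 0.42 and 0.28 on WT replicates 1 and 2 and between -0.22 and -0.10 on the other 4 arrays, the class I chain genes stay between -0.075 and 0.062, and the macrophage and B cell markers are lowest on WT replicate 3.

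Class II promoters carry a conserved set of short elements, of which the Y box, an inverted CCAAT box bound by the factor NF-Y, has the letters CTGATTGG in its usual mouse form. Since the chain genes rose and fell together between arrays, the 250 bases before the start of H2-Aa and H2-Eb1 are shown from RefSeq (GRCm38.p6). H2-Ab1 had no window in the reference used, and Cd74 was left out by choice, so neither is shown or counted. H2-Aa lies at chr17:34287824-34288073 on the minus strand and H2-Eb1 at chr17:34305617-34305866 on the plus strand. Capitals mark the Y box and, in H2-Aa, the cyclic AMP response element letters TGACG, which there occur on both strands and overlap.
H2-Aa: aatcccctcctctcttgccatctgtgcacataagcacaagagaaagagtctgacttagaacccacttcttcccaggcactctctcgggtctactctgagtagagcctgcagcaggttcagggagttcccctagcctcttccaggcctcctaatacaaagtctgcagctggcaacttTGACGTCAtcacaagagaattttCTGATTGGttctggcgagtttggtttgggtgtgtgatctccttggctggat
H2-Eb1: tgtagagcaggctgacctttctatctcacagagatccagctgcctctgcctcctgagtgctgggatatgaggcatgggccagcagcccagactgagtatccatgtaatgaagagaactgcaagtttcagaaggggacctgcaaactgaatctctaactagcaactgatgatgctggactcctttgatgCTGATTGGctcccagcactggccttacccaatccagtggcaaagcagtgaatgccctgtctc

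The Y box began 51 bases before the start of H2-Aa and 62 bases before that of H2-Eb1. Searched on both strands, its letters were found in 4 of the 6 members whose windows were used (H2-Aa, H2-Eb1, H2-D1 and Tap1). They were also found in 3.83% of the 32851 windows of that length, several of which can belong to 1 gene. The shorter letters CCAAT, which every such Y box contains on the opposite strand, were found in all 6 and in 33.8% of all windows. TGACG was found in 5 of the 6, all but H2-Eb1, and in 17.8% of all windows. In H2-D1, a class I chain gene, and Tap1, a transporter gene, the Y box letters lay on the opposite strand, 53 and 222 bases before the start. The part of the Y box in the class II pattern was not tested.

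The class I chain genes were the steadiest members, and their genotype differences were smaller than the spread of the arrays. H2-K1, a classical heavy chain, read 10.15, 10.18 and 10.26 in WT and 10.23, 10.09 and 10.11 in Merit40-/-, with a difference of -0.054 (95% interval -0.31 to 0.20). H2-D1, the other classical heavy chain, read 12.42, 12.40 and 12.42 in WT and 12.49, 12.25 and 12.35 in Merit40-/-, with a difference of -0.049 (95% interval -0.32 to 0.22). Merit40-/- replicate 2 was the lowest array for both heavy chains, and Merit40-/- replicate 1 lay above at least one WT array in each. B2m, the light chain shared by all class I molecules, read 12.63, 12.65 and 12.63 in WT and 12.66, 12.63 and 12.64 in Merit40-/-. Its difference was 0.0093 (95% interval -0.23 to 0.25), an interval set largely by the spread limma assumes from other genes rather than by the 0.04 that separated its highest from its lowest array. Only 0.00863% of all genes had an SD over the 6 arrays as small as B2m or smaller, against 2.92% for H2-K1 and 6.18% for H2-D1. H2-D1 and B2m lay near the top of the scale, whose highest value was 13.1 to 13.2 on each array. A bright array signal can hide changes, so steady values there do not show that the transcripts were equal.

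The heavy chain genes are close copies, and probes for one can take up transcripts of another. Their promoters carry elements known to answer inflammatory signals, so the 250 bases before the start of both are shown (RefSeq, GRCm38.p6). H2-K1 lies at chr17:34000348-34000597 on the minus strand, counted from the more upstream of the 2 starts in the table, and H2-D1 at chr17:35262844-35263093 on the plus strand. Capitals mark the kappa B letters GGGATTCCC of enhancer A, bound by NF-kB, and the letters TTTCACTTC of the interferon response element, bound by interferon regulatory factors.
H2-K1: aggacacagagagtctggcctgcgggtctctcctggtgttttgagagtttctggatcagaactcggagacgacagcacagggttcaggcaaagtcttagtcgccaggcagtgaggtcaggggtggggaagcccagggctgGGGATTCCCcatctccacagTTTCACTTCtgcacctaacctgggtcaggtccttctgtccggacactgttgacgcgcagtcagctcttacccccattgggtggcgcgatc
H2-D1: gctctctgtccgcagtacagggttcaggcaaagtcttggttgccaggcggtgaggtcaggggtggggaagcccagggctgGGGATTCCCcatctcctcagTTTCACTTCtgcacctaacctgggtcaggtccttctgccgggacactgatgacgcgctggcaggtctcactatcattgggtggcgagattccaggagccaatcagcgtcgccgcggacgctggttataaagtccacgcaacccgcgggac

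Over their best local alignment these windows were identical at 161 of 177 positions (91.0%). Transcript and probe sequences were not compared, so this does not measure how far the probes share transcripts. The kappa B letters, searched on both strands, were found in H2-K1 and H2-D1 only among the 6 searched members, and in 99 of all 32851 windows (0.301%). The interferon element letters were likewise found in H2-K1 and H2-D1 only among the 6, and in 0.402% of all windows. The windows of B2m and Tap1 held neither, and no letters in a window show whether a factor was bound there.

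The transporter genes varied together between arrays more than they differed between genotypes. Tap1 read 8.21, 8.58 and 8.15 in WT and 8.30, 8.30 and 8.24 in Merit40-/-, and Tap2 read 7.46, 8.12 and 7.39 in WT and 7.90, 7.60 and 7.80 in Merit40-/-. WT replicate 2 was the highest and WT replicate 3 the lowest array for both. All 3 Merit40-/- arrays lay inside the WT range in both genes. The differences were -0.029 (95% interval -0.36 to 0.30) for Tap1 and 0.11 (95% interval -0.36 to 0.57) for Tap2. Without WT replicate 2 they were 0.10 and 0.34, and without WT replicate 3 they were -0.11 and -0.026, so the sign of each rested on single WT arrays. The pattern differed from that of the class II chains, for which WT replicate 1 stood high as well.

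**Figure D3:**
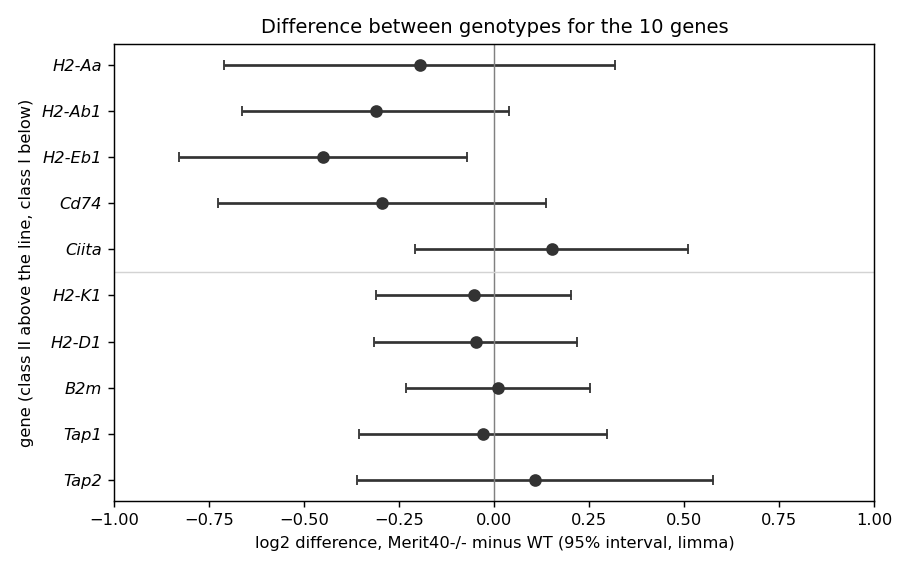
Log2 difference between genotypes (horizontal axis, Merit40-/- minus WT) for each of the 10 genes (vertical axis), as points with the 95% interval from limma, not adjusted for the number of genes. Of the 10 intervals only that of H2-Eb1, -0.83 to -0.07, leaves out 0, and its adjusted p is 0.999.

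The other genes of the class II pathway did not pass the test either. Of 23 measured genes, 13 were higher and 10 lower in Merit40-/-, with a median difference of 0.04. In limma 0 passed, with 0 at an unadjusted p under 0.05, beside 4.22% of all genes. The lowest was H2-DMb1, a chain of the H2-DM molecule that trades the invariant chain peptide for others, with a WT mean of 7.36 ± 0.14 (SD, n = 3) and a Merit40-/- mean of 7.08 ± 0.27 (SD, n = 3) (difference -0.28, SE 0.16). Its partner chain H2-DMa differed by -0.0061 (SE 0.12). H2-DMb2 is a close copy of H2-DMb1, so probes for these genes may share transcripts. H2-DMb2 read 3.35, 4.98 and 3.49 in WT and 5.39, 2.49 and 3.75 in Merit40-/-, the widest scatter of the list, in both genotypes. The highest was Cd86, a costimulator of T cells, at 4.88 ± 0.36 (SD, n = 3) and 5.31 ± 0.30 (SD, n = 3), near the median level of all genes. The genotypes did not overlap for 3 of the 23, beside 9.05% of all genes. These were Marchf1, Marchf8 and Cd40. Marchf1 and Marchf8, ubiquitin ligases of the family that takes class II molecules off the cell surface, differed by -0.14 (SE 0.11) and 0.21 (SE 0.12). The costimulatory receptor gene Cd40 differed by -0.24 (SE 0.12). Marchf1 (4.10 to 4.35) and Cd40 (4.47 to 4.90) read below the median of all genes on every array, so their signal was low. Cathepsin S, encoded by Ctss, which trims the invariant chain, read 7.37, 7.58 and 6.70 in WT and 7.32, 7.53 and 6.93 in Merit40-/-, with WT replicate 3 lowest as for Cd74 but with Merit40-/- replicates 1 and 2 close to WT replicates 1 and 2. Rfx5, a subunit of the factor that recruits Ciita to class II promoters, differed by -0.21 (SE 0.18).

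Of 26 measured genes of the list for the class I pathway, 13 were higher and 13 lower, with a median difference of -0.0055, and 0 passed in limma, with 2 at an unadjusted p under 0.05, beside 4.22% of all genes. The highest was H2-Q10, a secreted class I molecule, with a WT mean of 3.90 ± 0.24 (SD, n = 3) and a Merit40-/- mean of 4.67 ± 0.59 (SD, n = 3) (difference 0.76, SE 0.28), below the median of all genes in both means and highest on Merit40-/- replicate 1, the array with muscle genes, at 5.26. Mr1, which presents vitamin metabolites to T cells, stood at 6.83 ± 0.42 (SD, n = 3) and 7.36 ± 0.25 (SD, n = 3), a difference of 0.53 (SE 0.22), with overlapping arrays. The lowest was the nonclassical gene H2-T22, with a difference of -0.35 (SE 0.18). The genotypes did not overlap for 2 of the 26, beside 9.05% of all genes. These were Tapbpl, a peptide editor, at -0.19 (SE 0.12), and the proteasome activator subunit Psme1, also at -0.19 (SE 0.12). The immunoproteasome genes Psmb9 and Psmb8, which flank Tap1 on chromosome 17, differed by 0.068 (SE 0.15) and 0.096 (SE 0.15), and the class I coactivator Nlrc5 by -0.077 (SE 0.20). H2-Ke6, listed by its name in the MHC region, encodes a steroid dehydrogenase and no presentation gene. Sppl2a (difference 0.11, SE 0.13) stands in both this list and the class II list, so both counts include it. Like H2-K1 and H2-D1, the H2-Q and H2-T genes are close copies of each other, so their values are uncertain as those of single genes.

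**Figure D4:**
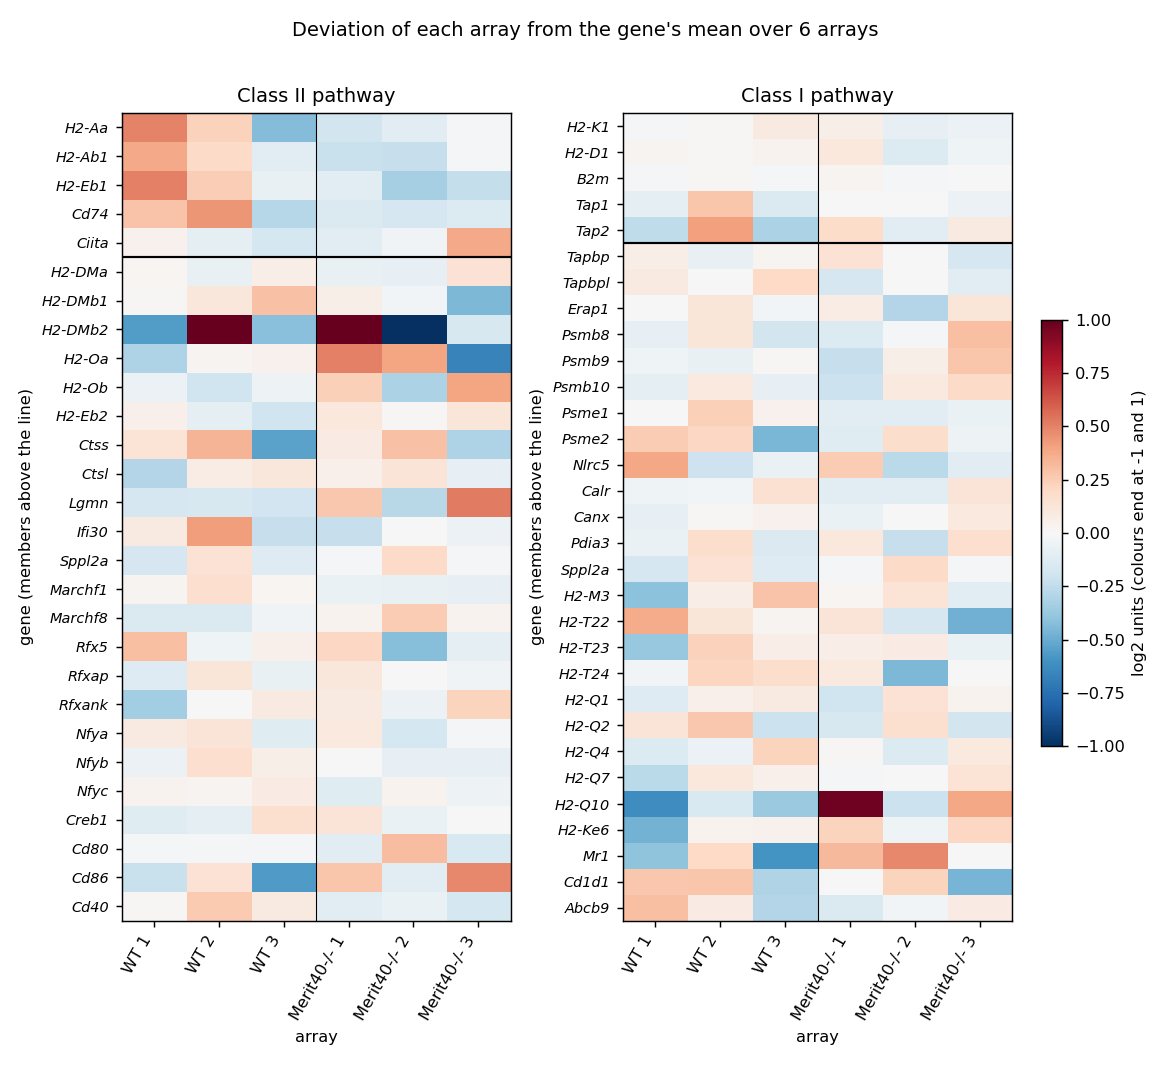
Deviation of each array (columns) from the mean over 6 arrays of each gene (rows), in log2 units by colour, for the class II genes on the left and the class I genes on the right, with the members above the black line and the other listed genes below it. The cells of H2-Aa, H2-Ab1, H2-Eb1 and Cd74 are red on WT replicates 1 and 2. These arrays are also the highest pair in 2 of the 23 other class II genes (Ifi30 and Marchf1). They are so in 3 of the 26 other class I genes (Psme2, Cd1d1 and Abcb9), beside 6.16% of all genes. The rows of H2-K1, H2-D1 and B2m are nearly white.

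Genes of interferon-gamma signalling, which induces both MHC classes, did not separate the genotypes. Of 20 measured genes, 9 were higher and 11 lower, with a median difference of -0.042. In limma 0 passed, with 0 at an unadjusted p under 0.05, beside 4.22% of all genes. The highest and the lowest were the guanylate-binding protein gene Gbp4 at 0.22 (SE 0.31) and the chemokine gene Cxcl10 at -0.22 (SE 0.28). The mean level of the list was 7.23, 7.37 and 7.11 on WT replicates 1, 2 and 3, the same order as Tap1 and Tap2, and 7.22, 7.21 and 7.29 on the Merit40-/- arrays.

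The 10 members and genes below the median level were left out of the search for genes of like profile. Among the rest, the first 5 for the class II chains over the 6 arrays were no known presentation genes. The amino acid transporter gene Slc16a10 came first (Pearson's r = 0.991 with the mean of the 4 chain genes), followed by Tmtc3 (0.970), the glucocorticoid-induced chaperone gene Fkbp5 (0.970), Trip11 (0.967) and Lrrc46 (0.966). Slc16a10 read 6.96, 6.90 and 6.41 in WT and 6.45, 6.48 and 6.52 in Merit40-/-, again with WT replicate 3 at the level of the Merit40-/- arrays. For the class I chains the nearest genes were Spast (0.992), Poll (0.986), Ppargc1b (0.984), Insig1 (0.980) and Agps (0.978). The class I profile itself spans little, and Poll moved over 1.58 log2 units where the mean of the class I chains moved from 11.66 to 11.79. Of 10664 genes compared, 0.638% had an r above 0.9 with the class II profile and 0.928% with the class I profile. These values describe 6 shared arrays, and no test was made of them.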

How the data were processed

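Each of the 6 samples was hybridised to an Affymetrix GeneChip Mouse Gene 2.0 ST array, from 50 ng of total RNA amplified with the NuGEN Pico kit, per the labels. The authors deposited log2 expression values made with RMA and affy, per the submitters' processing notes. The genome build, like tool versions and probe set definition, was not given in the sources used here. RMA evens out the intensity distributions of the arrays, so a shift in total RNA is lost, and dim values are compressed. Levels of probe sets do not rank genes by transcript amount, and where one is set against the median of all genes, this marks dim or bright signal only. Scanner intensities were not used here.

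Of 25206 probe sets, 23185 had 1 gene symbol, 0 had several and 2021 were unnamed. All 23185 Entrez numbers matched the reference gene table (GRCm38.p6), used for symbols and gene order. No filter on level was set. The test was the 2-sided one of limma 3.58.1 (lmFit and eBayes in R 4.3.3, genotype as the only term), with Benjamini-Hochberg adjustment over 23185 genes and a threshold of 0.05. Differences are Merit40-/- minus WT, with moderated SE. The procedure was tested on simulated data. With so few arrays precision is low, and half-widths of the 95% intervals had a median of 0.342.

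The members, the gene lists and the tests were chosen with earlier results of these data known. All members are named. Of the 3 other pathway lists (class I, class II, interferon-gamma), the highest and the lowest difference are named. For likeness to the mean class II or class I chain profile, the first 5 genes at or above the median level are named. Members, predicted loci and small RNAs were left out there. Further genes of the pathway and marker lists, chosen for their role or their pattern over the arrays, were named after their values were seen. Listed genes with no named probe set here were not analysed here. Promoter windows were matched by symbol, and those of 6 of 10 members were used. The reference held no window for H2-Ab1, Ciita and Tap2, and Cd74 was left out of the search by choice. Alternatives tried were the replicate number as a block, array weights, another variance model, other scalings, filters on dim genes, all probe sets, and each array left out. Same-numbered arrays did not deviate together (r = -0.048, -0.0027 and 0.044), so the fit has no block.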

Additional observations from a re-analysis of the deposited data

How the results depend on the processing

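Under the 8 settings that kept all arrays and the 6 that left out 1 array, 1 gene (Babam1 with all arrays) passed in limma, and 0 members did. The smallest adjusted p of a member was 0.995 in limma with all arrays and 0.965 with 1 array left out. The mean difference of the class II members was -0.22 with a replicate block, -0.25 with array weights, and -0.38 to -0.11 with 1 array left out. That of the class I members was -0.0034, turned to 0.0050 with array weights and 0.0080 with each array centred on its median, and was -0.042 to 0.067 with 1 array left out. The signs of 5 members turned with a single array left out, which follows from that removal: B2m (-0.00029 without Merit40-/- replicate 1), H2-Aa (0.0019 without WT replicate 1), H2-D1 (0.0071 without Merit40-/- replicate 2), Tap1 (0.10 without WT replicate 2) and Tap2 (-0.026 without WT replicate 3). Leaving out 1 array gave ranges of -0.00029 to 0.017 for B2m, -0.46 to 0.0019 for H2-Aa, -0.026 to 0.34 for Tap2, -0.60 to -0.31 for H2-Eb1, -0.44 to -0.20 for H2-Ab1 and -0.51 to -0.15 for Cd74. Changes smaller than the 95% intervals given for each gene could not be seen with 3 arrays a genotype. For the bright genes H2-D1 and B2m, and for the dimmest members Ciita and H2-Eb1, array values may understate differences further.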
